A study of Mus musculus with 6 samples.

Results

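Molecular chaperones of the heat shock protein (HSP) and DNAJ families were followed across the cell classes of the mouse frontal lobe and between 2 Trem2 genotypes. The members were every gene symbol that starts with Hspa, Hspb, Hspd, Hspe, Hsph, Hsp90, Dnaja, Dnajb or Dnajc, without names containing -ps or -rs, which gave 74 of the 32285 genes counted. By family these were 14 genes of the HSP70 and HSP110 group, 3 HSP90 genes, 8 Hspb genes, 2 chaperonin genes (Hspd1 and Hspe1), 4 Dnaja, 13 Dnajb and 28 Dnajc genes. The prefix also took in Hspbp1 and Hspbap1, which encode proteins named for binding a heat shock protein and are not small heat shock proteins, while the small heat shock protein gene Cryab does not carry it. Nuclei came from the frontal lobe of 6 mice, 1 library each. All carried Tg-SwDI, a transgene of human amyloid precursor protein with mutations of familial Alzheimer's disease and cerebral amyloid angiopathy that is driven in neurons by a Thy1 promoter. Of the 6, 3 were wild type and 3 knockout for Trem2, a lipid-sensing receptor of microglia. No mouse without Tg-SwDI entered, so a level common to all libraries cannot be set against one without the transgene, and the labels give no ages. Replicates are numbered in accession order within a genotype, which pairs no mice.

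HSP70 proteins bind exposed hydrophobic stretches of unfolded clients and release them in a cycle of ATP hydrolysis. DNAJ proteins bring clients to HSP70 and start the hydrolysis, and HSP110 proteins exchange the nucleotide. HSP90 acts later on signalling proteins, Hspd1 and Hspe1 form the folding chamber of mitochondria, and the small heat shock proteins hold aggregating clients without ATP. Many of these genes are induced by heat shock factors, which bind alternating GAA and TTC units, while the chaperones of the endoplasmic reticulum (ER) are induced by the unfolded protein response through the ER stress element. In the brain, DNAJ proteins are known for handling synaptic vesicles, clathrin coats and aggregation-prone proteins.

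Promoter sequences show which members carry these elements. The RefSeq promoter table (GRCm38.p6, 250 bases before to 50 after each start) held 60 of the 74 members, and Hsp90aa1, Hsp90ab1 and Hspa8 were among those without an entry. A pair of facing heat shock units, GAANNTTC or TTCNNGAA, searched on both strands, lay in 16 of the 60 members (26.7%) and in 17.0% of 27025 genes. It lay in 8 of the 10 heat-inducible members that had an entry. The list of heat-inducible members holds Hspa1a, Hspa1b, Hspa8, Hspa4l, Hsph1, Hsp90aa1, Hsp90ab1, Hspd1, Hspe1, Hspb1, Dnaja1, Dnajb1 and Dnajb4, 13 genes. A run of 3 alternating units, which contains the shorter form, lay in 4 members (Dnajb6, Hspd1, Hspe1 and Hsph1, 6.67%) and in 0.662% of genes. The ER stress element, CCAAT and CCACG with 9 bases between them, lay in Hspa5, Hsp90b1 and Dnajc3 (5% of members, 0.137% of genes). A match describes letters and does not show binding. The stretches below are shown because they carry these elements in genes the results turn on; each is written 5′ to 3′ along its gene, and the capitals mark the element.
Hspa1a: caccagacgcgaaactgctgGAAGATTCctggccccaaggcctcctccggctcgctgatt
Hspd1: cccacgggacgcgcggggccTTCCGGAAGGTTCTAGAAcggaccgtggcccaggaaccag
Hspe1: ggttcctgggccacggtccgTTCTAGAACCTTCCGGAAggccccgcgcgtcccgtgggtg
Dnajb6: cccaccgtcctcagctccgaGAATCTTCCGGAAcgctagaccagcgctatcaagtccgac
Hspb3: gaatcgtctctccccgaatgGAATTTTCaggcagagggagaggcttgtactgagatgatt
Hspa5: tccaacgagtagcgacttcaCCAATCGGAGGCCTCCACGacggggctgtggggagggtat
Dnajc3: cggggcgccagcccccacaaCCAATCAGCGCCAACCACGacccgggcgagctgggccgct
Hsp90b1: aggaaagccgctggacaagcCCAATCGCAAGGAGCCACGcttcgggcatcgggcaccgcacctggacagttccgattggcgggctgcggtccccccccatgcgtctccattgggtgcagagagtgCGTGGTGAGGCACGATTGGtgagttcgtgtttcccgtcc

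The Hspa1a stretch lies at chr17:34972221-34972280 on the minus strand, and the promoters of Hspa1a and Hspa1b, neighbouring genes for inducible HSP70, differed at 4 of 300 bases, none of them in the stretch shown. Hspd1 (chr1:55088037-55088096, minus) and Hspe1 (chr1:55088039-55088098, plus) are divergent genes that share one stretch, so the same letters appear in both on opposite strands. The Dnajb6 stretch is at chr5:29735832-29735891 (plus) and the Hspb3 stretch at chr13:113663861-113663920 (minus). Those with the ER stress element lie at chr2:34772005-34772064 (plus) for Hspa5, chr14:118937807-118937866 (plus) for Dnajc3 and chr10:86705513-86705676 (minus) for Hsp90b1, which holds 2 copies.

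Of 39752 barcodes, 34281 passed a minimum of 200 detected genes and a limit of 5% mitochondrial UMIs (unique molecular identifiers, each standing for 1 captured RNA), and 33008 nuclei remained after 1273 doublets were removed. Deposited totals were 12268713 to 16235232 UMIs in the wild type libraries and 11493087 to 51317961 in the knockout ones. Knockout replicate 1 stood apart: it had the highest total, a median of 5310 UMIs per nucleus against 1444 to 2465 in the others, and another version of the counting software, so the library, the version and the genotype cannot be told apart in it, and results are given with and without it. Between 38 and 57 barcodes of each library also occurred in another library. Nuclei were clustered without the member genes and named from marker genes: 6514 excitatory neuron-like, 4924 striatal projection neuron-like, 4764 oligodendrocyte-like, 1914 inhibitory neuron-like, 1418 microglia-like, 1201 astrocyte-like and 917 oligodendrocyte precursor-like nuclei, called by these names from here on, while 11051 stayed unnamed (24.07% to 43.69% per library). All markers of each class were highest in their own class, except 1 of 10 for inhibitory neurons. The same markers gave the classes their names, so this does not test the names. Most excitatory, oligodendrocyte and striatal nuclei of knockout replicate 1 (69.7%, 83.4% and 94.9%) lay in clusters other than those holding most of these classes in the other libraries. Trem2 itself, the targeted gene, had 2005, 1741 and 1010 CPM (UMIs scaled to 1000000) in microglia of the wild type mice, against 348, 782 and 508 in those of the knockout mice, lower in every knockout library but not absent (log2 difference -1.54, edgeR adjusted p = 0.757, and -1.27 with 0.0927 without knockout replicate 1). The labels do not say which part of the gene was deleted, so 3′ counts need not reach 0.

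To ask where each chaperone is expressed, UMIs were summed per library and class, and each class was compared with the mean of the other 6 in edgeR's quasi-likelihood test with library as a block, at a Benjamini-Hochberg adjusted p under 0.05 over 12103 genes. Levels are CPM on one scale over the 7 classes, and differences are log2. Of the 74 members, 55 had enough counts to be tested, 52 of these differed in at least 1 class, and Dnaja3, Dnajc30 and Hspa14 differed in none. The test called much of the genome, so counts of members have to be read against the share of all genes. Members higher or lower numbered 14 and 17 in excitatory neurons (all genes 36% and 27.7%), 16 and 7 in inhibitory neurons (29.9% and 24.6%), and 20 and 11 in striatal projection neurons (35.1% and 27.1%). They numbered 6 and 11 in astrocytes (21.5% and 22.4%), 20 and 7 in oligodendrocytes (27.8% and 29.6%), 1 and 12 in oligodendrocyte precursors (18.8% and 14.3%), and 15 and 15 in microglia (25.5% and 32.2%). The median log2 difference of the tested members was 0.22 in oligodendrocytes, beside -0.05 over all genes, and -0.29 in precursors, beside -0.05. Without knockout replicate 1, 52 members were tested, and those called were 31, 21 and 25 in excitatory, inhibitory and striatal neurons (60.6%, 49.9% and 60.3% of all genes), 9 in astrocytes (34.9%), 21 in oligodendrocytes (51.1%), 14 in precursors (26.3%) and 22 in microglia (48.8%). The members called with the same sign in both fits were 30, 21, 24, 9, 21, 11 and 22 in that order.

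**Figure D1:**
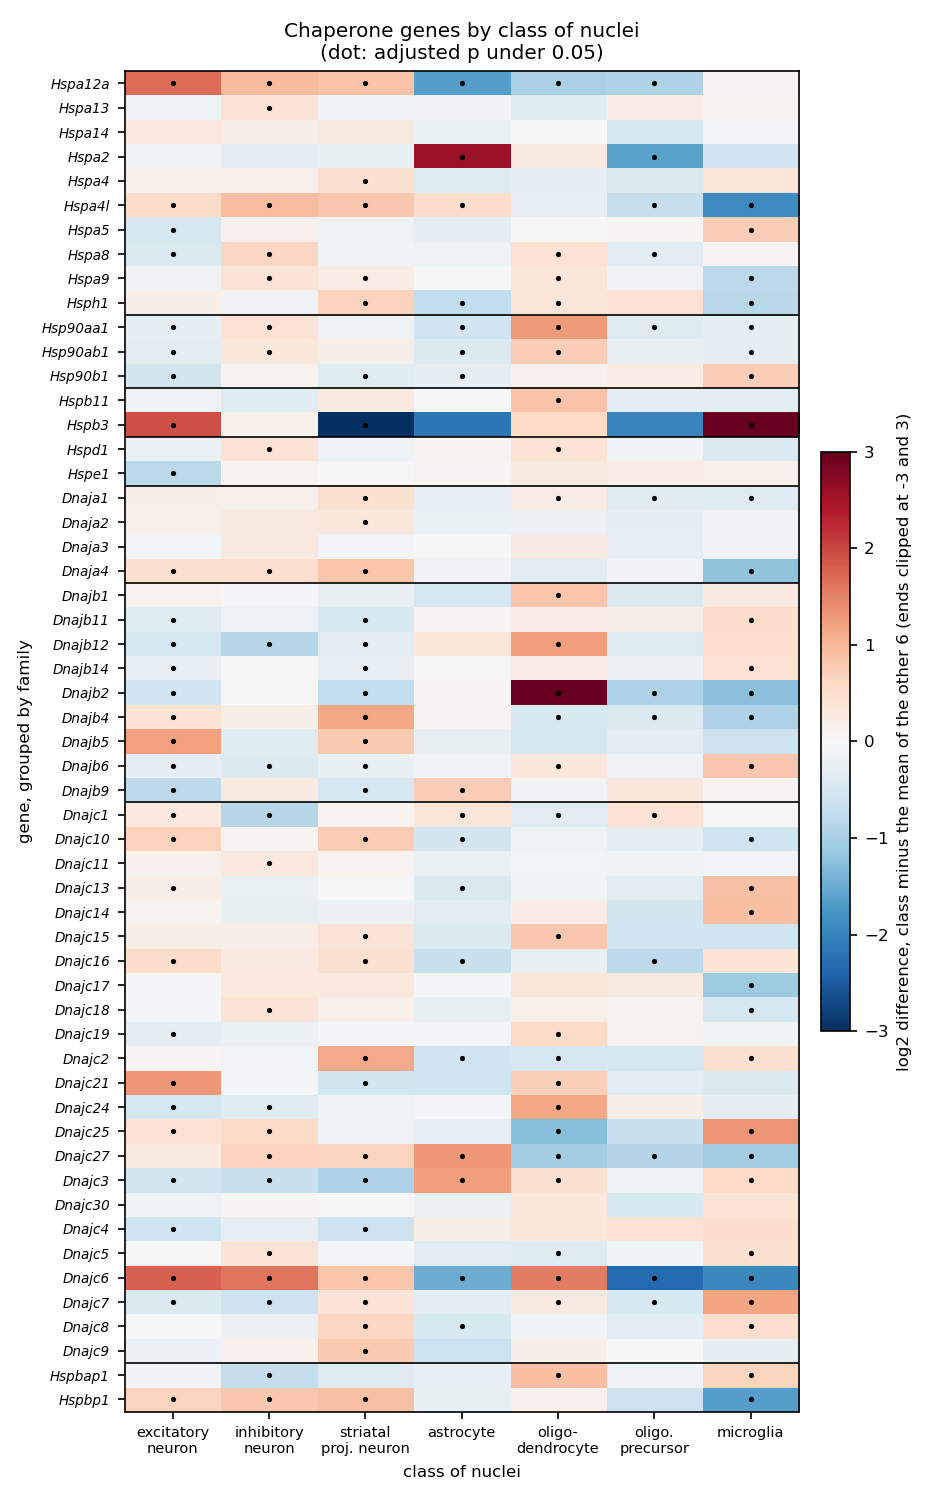
Heat map of the log2 difference of each tested member (rows, 55 genes) in each of 7 cell classes (columns) from the mean of the other 6, from sums of UMIs in 6 libraries; dots mark an adjusted p under 0.05 in edgeR, and colours are clipped at the ends of the scale. Dnajb2 in oligodendrocytes (3.45), Hspb3 in microglia (5.51) and Hspa2 in astrocytes (2.58) show as isolated strong cells, while most members differ by less.

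Hspb3, a small heat shock protein known from muscle, had its highest levels in microglia. Its level there was 45.8 CPM in the lowest library, 63.3 at the median and 105 in the highest, from 96 UMIs, and no library of any other tested class exceeded 13.5 CPM. The difference was 5.51 ± 0.30 (SE), with an edgeR adjusted p of 3.74e-22, and 5.85 without knockout replicate 1. A UMI of Hspb3 was found in 2.79% to 8.84% of microglial nuclei per library, at median depths of 677 to 1396 UMIs, and in at most 0.103% of striatal projection neurons, at 2436 to 5772 UMIs; these shares were not brought to one depth. Excitatory neurons came next with 3.61, 9.12 and 13.5 CPM (lowest, median, highest), a difference of 1.94 ± 0.29 and an edgeR adjusted p of 8.96e-08. They held 203 Hspb3 UMIs in 6514 nuclei, at median depths of 2658 to 8690 UMIs, so detection was not confined to microglia. Striatal projection neurons held 2 Hspb3 UMIs in all, so no fold is given for them; the gene was called lower there with an edgeR adjusted p of 3.5e-05, but of 1 without knockout replicate 1. The wild type and knockout microglia overlapped in Hspb3, at 64.9, 61.6 and 45.8 against 46.9, 105 and 68.4 CPM.

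The other small heat shock protein genes were rare in these nuclei. Hspb11, whose product works in ciliary transport, was called higher in oligodendrocytes by 0.86 ± 0.23 (edgeR adjusted p = 0.00132; 1.77, 13 and 35.1 CPM, the highest in knockout replicate 1, without which it was not tested). Hspb1, the abundant stress-induced HSP27, had 1 UMI among 1320076 in microglia and 11 among 34267711 in excitatory neurons. In the 31 endothelial-like nuclei, too few to test, it had 40 of 40177 UMIs, or 996 CPM (exact Poisson 95% interval 711 to 1356, counting error only), but 22 of the 40 came from 1 library. In the 54 mural-like nuclei it had 4 of 49770 UMIs, and in the 220 border macrophage-like nuclei 0 of 287383, which allows up to 10.4 CPM at 3 counts and 12.8 by the exact Poisson interval. Hspb8, which clears misfolded proteins by autophagy together with Bag3, had 17 UMIs in astrocytes, 7.97 CPM (interval 4.64 to 12.8), and 0 to 5 in each other class. Hspb6 and Hspb7 had at most 12 and 13 UMIs in any class, and neither was tested between classes.

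Dnajb2, first described in neurons as a DNAJ protein with ubiquitin-binding motifs that hands clients to the proteasome, was highest in oligodendrocytes. Its level was 263, 418 and 509 CPM there (lowest, median, highest) and no more than 80.2 in any library of another tested class. The difference was 3.45 ± 0.08, the edgeR adjusted p 5.5e-38, and the value without knockout replicate 1 was 3.37. A UMI of Dnajb2 lay in 25.6% to 34.02% of oligodendrocyte nuclei and in 1.20% to 3.57% of microglial nuclei, classes of similar median depth (776 to 1598 and 677 to 1396 UMIs). In precursors, which give rise to oligodendrocytes, Dnajb2 had a median of 29.5 CPM. It was lower there than the mean of the other 6 classes (-0.96), a mean that the oligodendrocyte level raises.

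Both cytosolic HSP90 genes were higher in oligodendrocytes too. Hsp90aa1 stood at 237, 379 and 729 CPM, a difference of 1.27 ± 0.09 (edgeR adjusted p = 1.2e-18), and Hsp90ab1 at 299, 502 and 993 CPM, a difference of 0.73 ± 0.08 (edgeR adjusted p = 4.68e-11). Of the 3 HSP90 genes, 2 were higher and 0 lower in inhibitory neurons too (29.9% and 24.6% of all genes), also without knockout replicate 1. Summed over libraries, Hsp90ab1 had 503 CPM in oligodendrocytes. It had 1220 CPM in endothelial-like nuclei (49 UMIs, interval 902 to 1612) and 844 in mural-like nuclei (42 UMIs, interval 608 to 1141), both untested. Hspa8, the constitutive cytosolic HSP70, was higher by 0.44 ± 0.09 in oligodendrocytes and by 0.62 ± 0.09 in inhibitory neurons (edgeR adjusted p = 3.26e-05 and 1.94e-08). Its transcript end shares 81.8% of its 50-base windows with other transcripts, so its counts are uncertain. The spread over libraries was wide for Hsp90aa1, Hsp90ab1 and Hspa8, and wild type replicate 1 and knockout replicate 3 were the 2 highest for each in oligodendrocytes. Dnajc6, auxilin, which strips clathrin from vesicles, was higher by 1.53 ± 0.19, with 37.5, 45.2 and 229 CPM. This difference includes knockout replicate 1, as do those of Dnajc6 in microglia and precursors below. Over all nuclei the log2 ratio of that library to the mean of the other 5 was 3.36 for Dnajc6. Dnajc25 and Dnajc27, the last a small GTPase with a J domain, were lower, with differences of -1.28 ± 0.23 and -1.02 ± 0.24. Of the 10 tested heat-inducible members, 7 were higher and 1 lower in oligodendrocytes, 0 higher and 6 lower in microglia, and 0 higher and 5 lower in precursors, beside the shares of all genes given above. Without knockout replicate 1, 9 were tested, of which 3 were higher and 1 lower in oligodendrocytes, 0 higher and 4 lower in microglia, and 0 higher and 5 lower in precursors. Over 6 libraries 5 were higher and 0 lower in inhibitory neurons, 4 and 0 in striatal projection neurons, and 2 and 4 in excitatory neurons. Without knockout replicate 1 these were 5 and 0, 4 and 0, and 3 and 4, so higher levels were not particular to oligodendrocytes.

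**Figure D2:**
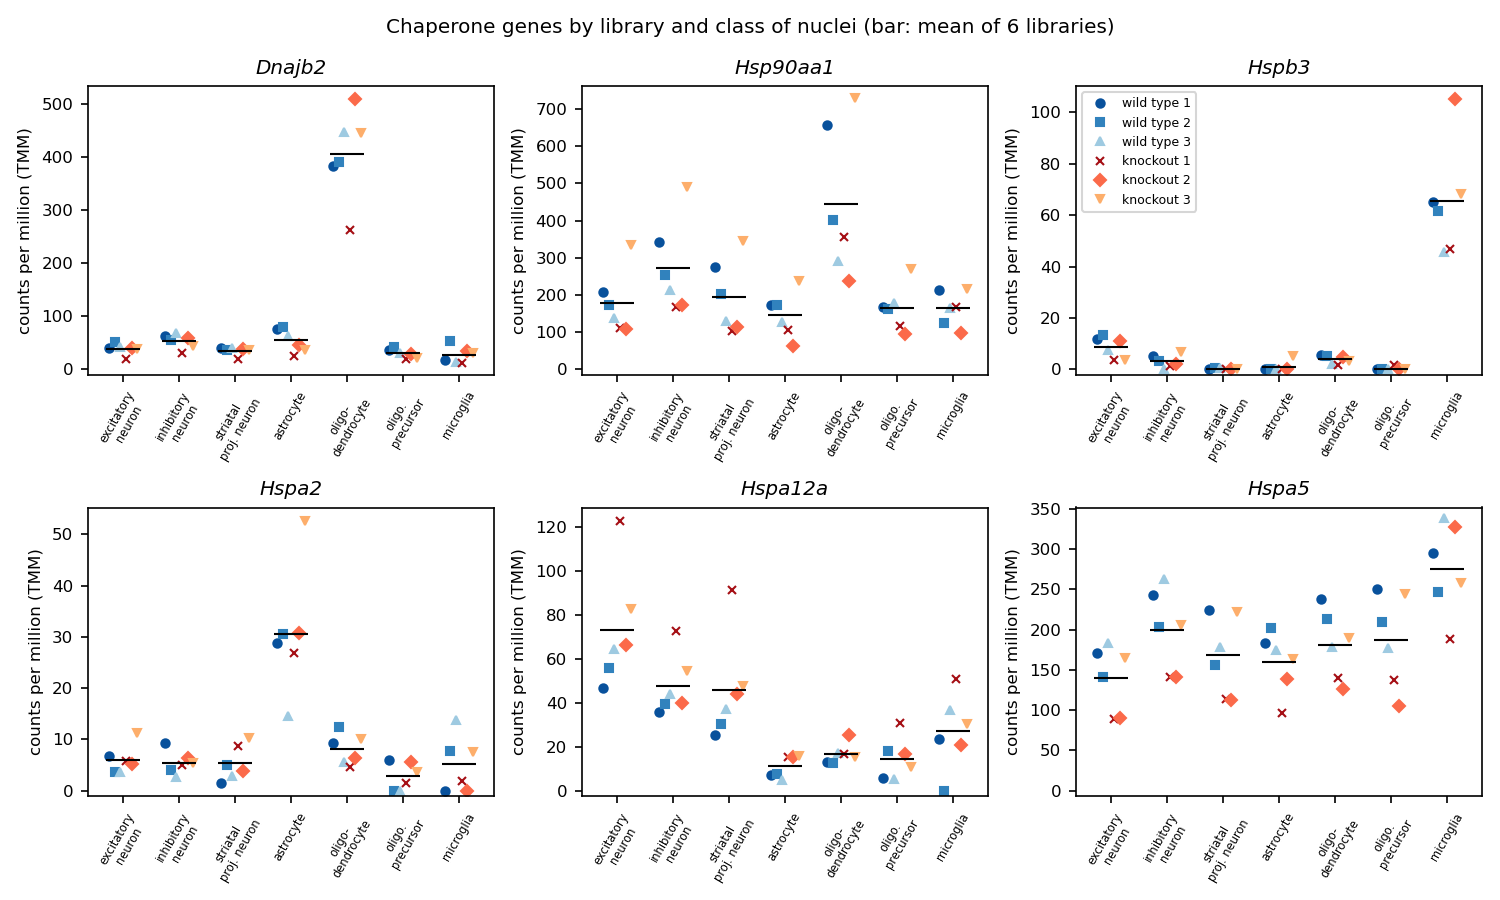
Level of 6 members (panels) in each of 7 cell classes (horizontal axis) as CPM on one scale (vertical axis); each point is 1 of 6 libraries and each bar the mean of the 6. The oligodendrocyte points of Dnajb2 lie between 263 and 509 CPM, above the other 6 classes, and the microglial points of Hspb3 between 45.8 and 105.

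Microglia had higher levels of the ER chaperones Hspa5, Hsp90b1, Dnajc3 and Dnajb11. Other ER members, among them Dnajb9, Dnajc10 and Hspa13, are not given for this class. Hspa5, or BiP, the HSP70 of the ER lumen, stood at 188, 277 and 339 CPM, a difference of 0.73 ± 0.11 (edgeR adjusted p = 5.14e-08), and Hsp90b1, or GRP94, its HSP90 counterpart, at 273, 323 and 342 CPM, a difference of 0.74 ± 0.09 (edgeR adjusted p = 2.64e-10). Dnajc3, a J protein that partners BiP, was higher by 0.61, and Dnajb11, another, by 0.53, the latter with an edgeR adjusted p of 0.00835 and of 0.0899 without knockout replicate 1. These include the 3 genes whose promoters hold the ER stress element. The difference of Dnajc3 was larger in astrocytes, as given below. Among 18 tested genes of ER stress and protein folding that are not members, 16 were higher in microglia and none lower (all genes 25.5% and 32.2%). Their median difference was 0.84, and without knockout replicate 1, 11 of 17 were higher and none lower. In excitatory neurons 2 were higher and 12 lower (36% and 27.7%), and in striatal projection neurons 1 was higher and 13 lower (35.1% and 27.1%). Edem1, which takes misfolded glycoproteins to degradation, was higher in microglia by 2.51 ± 0.21, Sdf2l1, a BiP partner, by 2.31 ± 0.24, the transcription factor gene Xbp1 by 1.28 ± 0.13 and the disulfide isomerase gene Pdia3 by 1.26 ± 0.11. In excitatory neurons Hsp90b1 and Hspa5 were lower (-0.55 and -0.48), as was Dnajb9, which restrains the stress sensor IRE1 (-0.78 ± 0.13, with 8.03, 13.1 and 27.5 CPM).

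Other members higher in microglia were Dnajc7, a J protein with tetratricopeptide repeats that binds HSP70 and HSP90 (133, 207 and 270 CPM, difference 1.19 ± 0.12, edgeR adjusted p = 5.6e-12), and Dnajb6, a suppressor of aggregation (142, 168 and 193 CPM, difference 0.81 ± 0.11). Dnajc25 was higher by 1.33 ± 0.22, but it overlaps Gm20503 on the same strand and its counts are uncertain. Several other members overlap a gene on the same strand too, among them Dnajc13 (Hmgb1-rs16), Hsp90b1 (Gm15344 and Gm25745), Dnajc1 (Gm13349 and Gm13350) and Dnajc6 (Gm22533). Dnajc13 was higher by 0.88 ± 0.13; here the libraries split by genotype, as described further on. Lower in microglia were Hspa4l, an HSP110 exchange factor, at -1.88 ± 0.20 with 8.4, 28.1 and 41.3 CPM, and Dnajc6, at -1.93 ± 0.37 with 0, 10.3 and 29.3 CPM, knockout replicate 1 included.

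Among the 7 tested classes, astrocytes had the highest levels of Hspa2, an HSP70 best known from the testis. It stood at 14.5, 29.6 and 52.6 CPM from 54 UMIs, against at most 13.7 in any library of another tested class, a difference of 2.58 ± 0.30 with an edgeR adjusted p of 2.31e-10. It fell below the count filter without knockout replicate 1, so that fit gave no value. In the small classes Hspa2 had 3 of 49770 UMIs in mural-like nuclei (60.3 CPM, exact Poisson 95% interval 12.4 to 176) and 4 of 287383 in border macrophage-like nuclei (13.9 CPM, interval 3.79 to 35.6), too few to rank against astrocytes. Dnajc3 was higher by 1.24 ± 0.13 (76.8, 114 and 171 CPM, edgeR adjusted p = 1.25e-11) and Dnajc27 by 1.29 ± 0.23 (26.3, 49.7 and 61.1 CPM). Hspa12a, an atypical HSP70, was lower, with a difference of -1.65 ± 0.27 and 4.84, 11.5 and 15.8 CPM. Dnajc6 was called lower, at -1.49 ± 0.33, but stood at -0.47 without knockout replicate 1 (edgeR adjusted p = 0.399). Of 8 tested immediate early and handling genes, 4 were higher and none lower in astrocytes (all genes 21.5% and 22.4%), with Fos at 2.08 ± 0.33 and Jun at 1.64 ± 0.26. Of the 10 heat-inducible members 1 was higher and 3 lower there.

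Averaged over their classes, neurons differed from glia most in Dnajc6 and Hspa12a. A comparison of the mean of the 3 neuron classes with that of the other 4, chosen after seeing the data, called 23 members higher and 16 lower (38.7% and 30.5% of all genes), and 29 in either direction without knockout replicate 1 (64.7%). Dnajc6 was higher in neurons by 2.12 ± 0.17 and by 1.30 without knockout replicate 1, which had 441 CPM in excitatory neurons where the other libraries had 38.2 to 48.6. The levels of Dnajc6 in oligodendrocytes, given above, overlapped those in excitatory neurons, so its difference did not hold for each glial class. Hspa12a was higher by 1.73 ± 0.12 and Hspa4l by 1.15 ± 0.09, values that stayed at 1.64 and 1.16 without that library. Lower in neurons were Dnajc3, at -1.08 ± 0.09, and Dnajb12, a J protein of the ER membrane, at -0.85 ± 0.14 (edgeR adjusted p = 1.76e-15 and 2.72e-07).

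Each neuron class was also compared with the mean of the other 6. In excitatory neurons Hspa12a had 46.9, 65.5 and 123 CPM (difference 1.66 ± 0.11) and Dnajb5 16.7, 37 and 51.4 CPM (1.23 ± 0.14), while the mitochondrial co-chaperonin Hspe1 was lower (-0.80 ± 0.12, with 17.9, 31.3 and 58.3 CPM). Transcript-end windows shared with other transcripts make up 53.2% of Hspe1. In striatal projection neurons Dnajb4, a heat-inducible cytosolic J protein, had 103, 176 and 249 CPM (1.15 ± 0.08, edgeR adjusted p = 3.37e-17), Dnajc2, a ribosome-associated J protein, 59.8, 76.3 and 99.6 CPM (1.13 ± 0.11, edgeR adjusted p = 2.69e-13) and Hspbp1, a nucleotide exchange factor, 15.9, 20.5 and 22.8 CPM (0.89 ± 0.19). Dnajc3 was lower there, at -0.92 ± 0.11. In inhibitory neurons Hspa4l had 108, 134 and 157 CPM (0.92 ± 0.10), Hspa12a was higher by 0.95 ± 0.13, Dnajc6 by 1.61 ± 0.17 and by 1.12 without knockout replicate 1, and Dnajc5, the cysteine string protein of synaptic vesicles, was higher by 0.38 (edgeR adjusted p = 0.00253). Dnajc1, an ER membrane J protein, was lower in inhibitory neurons, at -0.86 ± 0.10, as was Dnajb12, at -0.86 ± 0.17. Dnajc1 was the one member called higher in oligodendrocyte precursors, by 0.42 ± 0.12 (edgeR adjusted p = 0.004, and 0.0513 without knockout replicate 3). Dnajc6 was lower in precursors, at -2.34 ± 0.37 with knockout replicate 1 included (0, 8.17 and 26.2 CPM), and Hspa2 was called lower there from 4 UMIs.

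Other members, by family and role, were as follows. Of the 4 Dnaja genes, 3 were higher in striatal projection neurons (35.1% of all genes), and 2 without knockout replicate 1. Dnaja1, a main partner of Hspa8, was higher there by 0.45 and lower in microglia (-0.38) and in precursors (-0.36). Of the 9 tested Dnajb genes, 2 were higher and 6 lower in both excitatory (all genes 36% and 27.7%) and striatal neurons (35.1% and 27.1%). In oligodendrocytes 4 were higher and 1 lower (27.8% and 29.6%), and Dnajb12 was higher by 1.26 (median 47.6 CPM). Without knockout replicate 1, 8 were tested. Those higher and lower were then 2 and 6 in excitatory neurons, 2 and 5 in striatal neurons, and 3 and 1 in oligodendrocytes. Hspa4, an exchange factor, was higher in striatal projection neurons by 0.47. The mitochondrial chaperones Hspa9 and Hspd1 were higher in inhibitory neurons by 0.39 and 0.43, and Hspa9 was lower in microglia, at -0.80 ± 0.17, with 19, 28.6 and 46.2 CPM (edgeR adjusted p = 9.33e-05). Dnajc15 and Dnajc19, J proteins of mitochondrial import, were higher in oligodendrocytes by 0.82 and 0.58, and Dnajc24, which serves the diphthamide modification of a translation factor, by 1.17. Dnajc21, a factor of ribosome assembly, was higher in excitatory neurons by 1.30, with a median of 90.3 CPM. Hspa12b, known from endothelium, had 7 of 40177 UMIs in endothelial-like nuclei (174 CPM, interval 70.0 to 359), 6 of them from 1 library, and a median of at most 3.63 CPM in each of the 7 tested classes.

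Among partners of the chaperones that are not members, Cryab led in oligodendrocytes. Of 39 tested co-chaperones and regulators, 14 were higher and 3 lower in oligodendrocytes (all genes 27.8% and 29.6%). In microglia 6 were higher and 6 lower (25.5% and 32.2%). Without knockout replicate 1 these were 11 and 3 in oligodendrocytes and 6 and 5 in microglia. Cryab, the small heat shock protein outside the prefix, stood at 195, 322 and 647 CPM in oligodendrocytes, a difference of 4.58 ± 0.11 (edgeR adjusted p = 1.08e-37), and Cdc37l1, related to an HSP90 co-chaperone, was higher by 3.04 ± 0.08. Ptges3, the HSP90 co-chaperone p23, was higher by 0.88 ± 0.13. Fkbp5, a glucocorticoid-induced partner of HSP90, was higher in microglia by 2.73 ± 0.16, with 114, 202 and 737 CPM.

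The design asks whether loss of Trem2 changed chaperone expression. No member passed an edgeR adjusted p of 0.05 between genotypes in any of the 8 fits (7 classes and all nuclei), nor without knockout replicate 1. Over 6 libraries 0% of all genes was called in each fit; without knockout replicate 1 the share was 0.0453% in microglia, 0.0125% in oligodendrocytes, 0.143% in precursors and 0% elsewhere. At an unadjusted edgeR p under 0.05 there were 3 of 61 members over all nuclei (3.77% of all genes), 2 of 57 in excitatory neurons (5.20%), 0 of 50 in inhibitory neurons (6.63%) and 3 of 55 in striatal projection neurons (3.81%). There were 1 of 25 in astrocytes (8.11%), 2 of 41 in oligodendrocytes (6.22%), 2 of 18 in precursors (6.34%) and 1 of 26 in microglia (6.38%). DESeq2 called 0 members in every fit. Of all genes it called 2 of 25953 over all nuclei, 2 of 21575 in striatal projection neurons and 0 in each other class. In simulated data a 4-fold change was recovered for 100% of changed genes in excitatory neurons and 98.9% in oligodendrocytes. A 2-fold change was recovered for 54.5% and 28.1%, so smaller changes can be missed at this depth. The simulation gave all genes the same fixed spread and no library a shift of its own, and the other classes were not simulated. It therefore does not show which changes the measured data would call. Trem2 itself, at -1.54 in microglia, had an edgeR adjusted p of 0.757. The genotype difference in a class was also compared with that in excitatory neurons, and no member was called in any of the 6 classes, where all genes called were 0.0714% in microglia, 0.0411% in precursors and 0% in the others. At an unadjusted edgeR p under 0.05 there were 2 of 56 members in astrocytes (4.75% of all genes), 3 of 59 in inhibitory neurons (4.495%), 3 of 56 in microglia (5.64%), 0 of 58 in oligodendrocytes (5.15%), 6 of 54 in precursors (4.64%) and 0 of 57 in striatal projection neurons (3.87%). Without knockout replicate 1 precursors had 4 of 54 (4.53%).

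Dnajc13, or RME-8, a J protein of endosomes that works with HSP70 in sorting cargo, had the smallest unadjusted p of any member. Levels in the following are CPM scaled within one class. In microglia it stood at 99.8, 73.1 and 98.4 CPM in wild type (11, 6 and 15 UMIs) and at 290, 219 and 209 CPM in knockout (101, 37 and 37 UMIs). All 3 knockout libraries lay above all wild type ones, by 1.39 ± 0.36 log2, with an unadjusted p of 0.00217 and an edgeR adjusted p of 0.757. Without knockout replicate 1 the difference was 1.22 ± 0.35 (unadjusted p = 0.00137, edgeR adjusted p = 0.385). Over all nuclei the values were 43.1, 52.9 and 55.0 in the wild type mice, against 105, 80.8 and 61.4 in knockout, in excitatory neurons 47.6, 57.1 and 61.6 against 116, 86.6 and 63.4, and in striatal projection neurons 36.5, 49.4 and 46.9 against 83.2, 78.0 and 52.2. In inhibitory neurons they were 35.6, 60.1 and 55.8 against 102, 72.5 and 61.9. The groups overlapped in oligodendrocytes, at 32.8, 47.0 and 49.8 against 94.5, 103 and 40.0, in astrocytes, at 42.7, 41.8 and 56.8 against 86.3, 62.6 and 53.8, and in precursors, at 92.0, 35.4 and 76.6 against 121, 72.0 and 72.3. The fitted difference was positive in 8 of 8 fits (0.42 to 1.39) and in 7 of 7 without knockout replicate 1 (0.29 to 1.22), fits that share the same mice. The difference in microglia exceeded that in excitatory neurons by 0.75 ± 0.37, with an edgeR adjusted p of 0.875. Dnajc13 has 99711 intron bases, and knockout replicate 1 was high for genes with long introns; the part of this in the Dnajc13 values was not tested, and the difference in microglia without that library is the 1.22 given above.

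**Figure D3:**
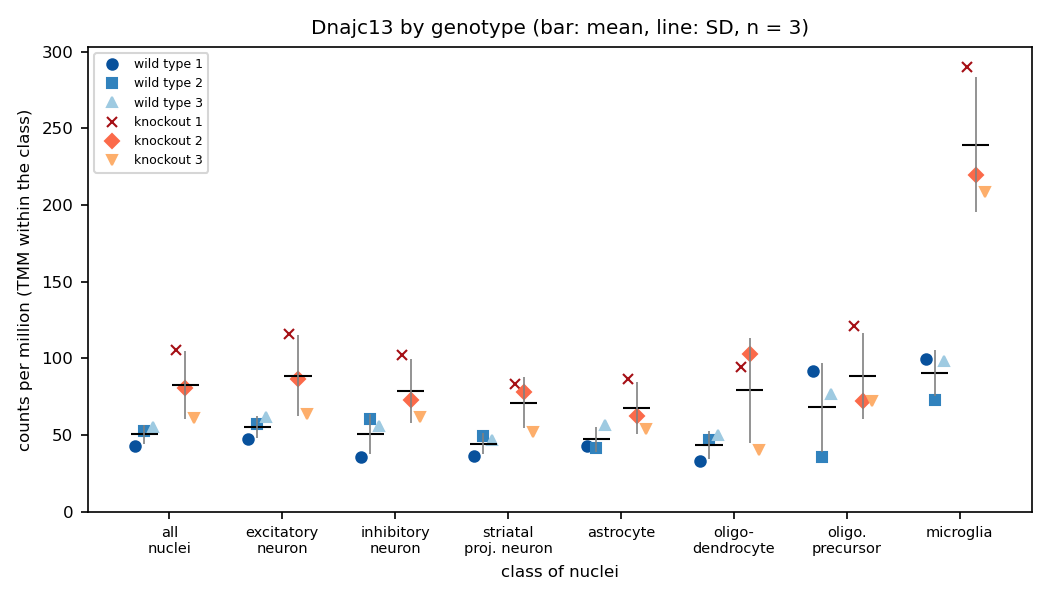
Level of Dnajc13 in CPM scaled within each class (vertical axis) by class and genotype (horizontal axis); points are libraries, bars the mean and lines the SD (n = 3 mice). The knockout points in microglia lie at 209 to 290 CPM and the wild type points at 73.1 to 99.8.

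Of the other members with small unadjusted p values, Dnajc6 moved most with knockout replicate 1. It had 31.4, 30.7 and 29.5 CPM over all wild type nuclei and 346, 34.2 and 38.5 in knockout, a difference of 2.19 ± 0.89 (edgeR adjusted p = 0.699) that was 0.25 without that library. Hspa12a had 28.0, 37.6 and 41.1 against 92.6, 43.1 and 53.9 CPM, a difference of 0.83, and 0.45 without it. In striatal projection neurons Hspa12a stood at 21.6, 25.3 and 30.2 against 80.1, 36.3 and 40.1 CPM, the groups not overlapping, with differences of 1.01 and 0.56 (edgeR adjusted p = 0.77 and 0.998). In astrocytes Dnajb2 had 81.5, 87.8 and 67.1 CPM in the wild type mice, against 27.4, 53.6 and 41.8 in knockout, a difference of -1.10 ± 0.40 (edgeR adjusted p = 0.59) and -0.77 without knockout replicate 1. In oligodendrocyte precursors Dnajc3 had 50.2, 44.2 and 55.7 against 104, 88.0 and 82.6 CPM, a difference of 0.87 ± 0.39 (edgeR adjusted p = 0.702) and 0.75 without knockout replicate 1, the groups not overlapping. Values over all nuclei can also move with the mix of classes.

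Knockout replicate 1 differed from the others by gene structure. Among the 61 members with enough counts over all nuclei, the 21 with the fewest intron bases (0 to 8193) had a median log2 ratio of this library to the mean of the other 5 of -0.61, the middle group 0.34 and the 20 with 25970 to 185526 bases 0.83. The rank correlation over the 61 genes was 0.69, a description of 1 library. Dnajc6, with 140243 intron bases, was at 3.36 and Dnajc1, with 185526, at 1.90, while Dnajb5 was at -1.15.

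**Figure D4:**
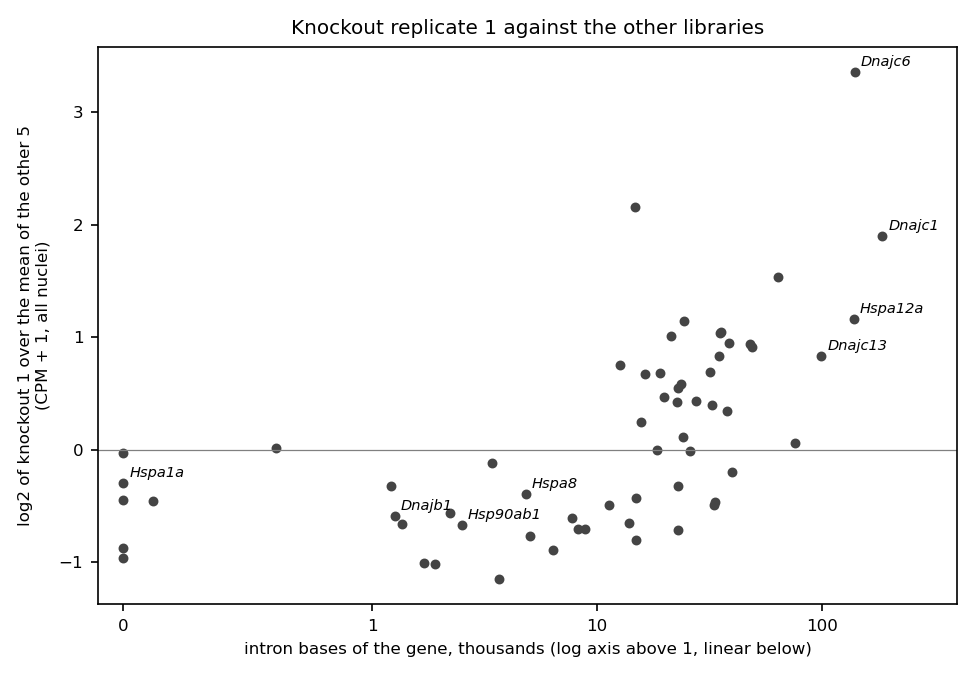
Log2 ratio of knockout replicate 1 to the mean of the other 5 libraries over all nuclei (vertical axis) against intron bases of each member (horizontal axis, log scale except near 0); each point is 1 of 61 genes, with CPM + 1 in the ratio. Members with few intron bases lie mostly below 0 and those with many mostly above, up to 3.36 for Dnajc6.

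Some members lie on chromosome 17 with Trem2. Hspa1a, Hspa1b and Hspa1l lie 13.4 Mb from it and Hsp90ab1 2.77 Mb. Hspa1a had 3.92, 3.41 and 2.02 CPM over all wild type nuclei and 2.17, 1.68 and 3.41 in knockout, Hspa1b 3.64, 1.21 and 1.27 against 1.89, 0.885 and 2.75, and Hspa1l at most 0.472 CPM in any library. The groups overlapped for Hspa1a and Hspa1b. Hsp90ab1 had 456, 326 and 295 CPM in the wild type mice, against 243, 199 and 662 in the knockout mice, a difference of 0.04 that was 0.26 without knockout replicate 1.

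The heat-inducible members varied among mice more than between genotypes. They made up 0.172%, 0.133% and 0.108% of UMIs in the wild type mice, against 0.0703%, 0.0999% and 0.239% in knockout, or 0.138% ± 0.0321 and 0.136% ± 0.0902 (SD, n = 3). Knockout replicate 3 was the highest of the 6 libraries in all 7 classes, with 1.67 to 3.25 times the share in knockout replicate 2. Wild type replicate 1 was second in all 7. Hsp90aa1 stood at 277, 191 and 156 CPM in the wild type mice, against 135, 125 and 360 in the knockout mice, Hspa8 at 376, 238 and 184 against 206, 128 and 430, and Hspe1 at 56.5, 48.5 and 29.6 against 23.1, 25.03 and 76.3. Dnajb1, the heat-induced partner of HSP70, had 7.37, 6.14 and 3.44 against 4.33, 3.80 and 14.3 CPM, and Hsph1 67.7, 63.1 and 49.9 against 47.1, 52.5 and 86.1. In each of these knockout replicate 3 was the highest library and wild type replicate 1 the next. Among the 5 libraries, 30 of 61 members (49.2%) and 8 of 13 heat-inducible ones were highest in knockout replicate 3, against 25.6% of all genes. The exceptions were Dnajb4, Hspa1a, Hspa1b, Hspa4l and Hspb1.

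Several other measures moved with the library order. The mitochondrial share in kept nuclei was 1.44%, 1.23% and 0.695% in the wild type mice, against 0.726%, 0.830% and 2.17% in knockout, and the quality filter removed 15.48%, 17.77% and 6.328% of barcodes in the wild type mice, against 4.62%, 9.483% and 29.99% in knockout. Immediate early and handling genes made up 0.0430%, 0.0298% and 0.0253% of UMIs in the wild type mice, against 0.0130%, 0.0254% and 0.0545% in knockout, and ER stress genes 0.100%, 0.0927% and 0.0753% against 0.0692%, 0.0739% and 0.117%. Knockout replicate 3 was the highest and wild type replicate 1 the next in the mitochondrial share and in both gene lists; in barcodes removed it was the highest, with wild type replicate 2 next. The part of mitochondrial content and handling in the heat-inducible share was not tested. With nuclei up to 10% mitochondrial UMIs the heat-inducible shares were 0.179%, 0.138% and 0.109% against 0.0713%, 0.101% and 0.252%. The knockout mean minus the wild type mean was -0.0015 percentage points, -0.0528 without knockout replicate 3 and 0.0316 without knockout replicate 1.

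**Figure D5:**
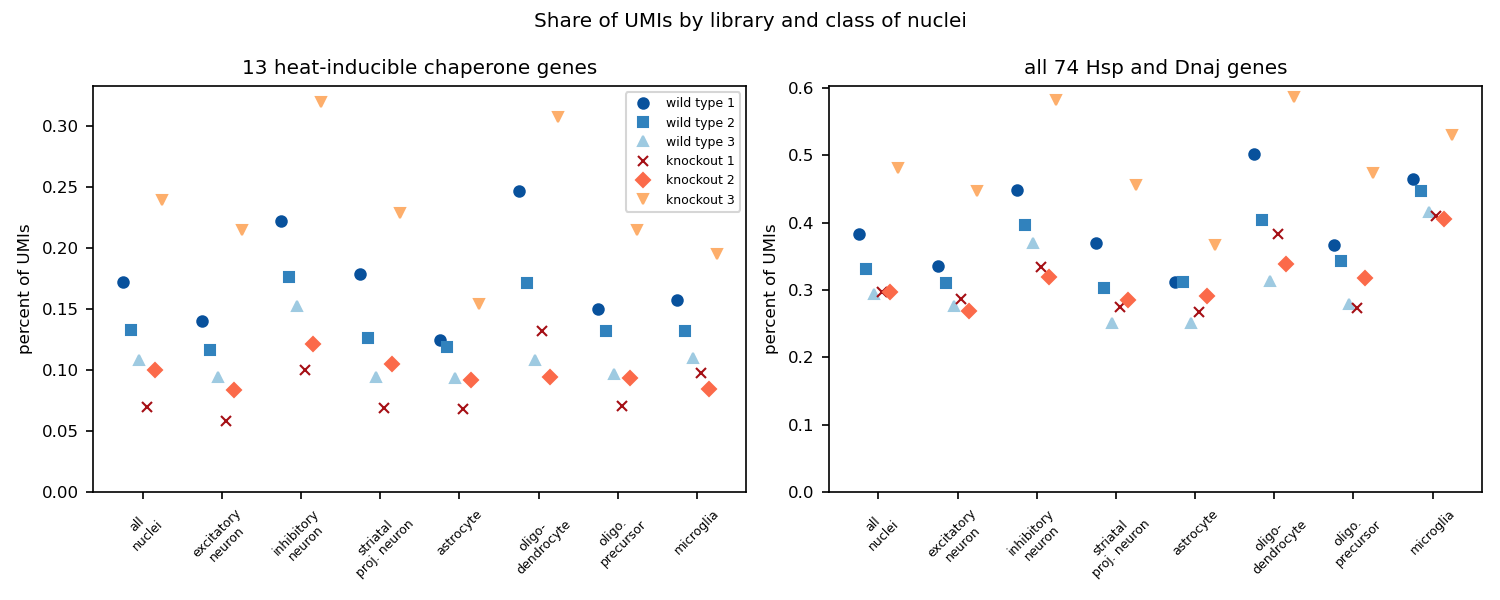
Percent of UMIs from the 13 heat-inducible members and from all 74 members (vertical axes) in each library by cell class (horizontal axis). Knockout replicate 3 is the highest of the 6 libraries in each class for the heat-inducible members, at 0.239% over all nuclei.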

How the data were processed

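Single-nucleus RNA was counted in 6 libraries, 1 per mouse. The authors deposited raw UMI counts per gene and barcode, which per the file headers came from Cell Ranger 6.1.2, except knockout replicate 1 from version 7.0.0; mm10 and Seurat are named in the submitters' processing notes. The sources used here do not say whether intron reads were counted or whether that setting differed between versions. Its part in the values of knockout replicate 1 was not tested. Members, gene lists and naming thresholds were chosen with earlier results of these data known.

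Filters were a minimum of 200 genes and a maximum of 5% mitochondrial UMIs per barcode, and doublets were removed with Scrublet at an expected rate of 6% (scanpy 1.11.5). Clusters came from 2000 variable genes without the members, 30 principal components, 15 neighbours and Leiden resolution 1, and were named from at least 3 markers. Thresholds for naming were set after seeing the data. UMIs were summed per library and class, and each class in which no library had under 20 nuclei was tested with edgeR 4.0.16 (quasi-likelihood, TMM, filterByExpr, two-sided, R 4.3.3), with p-values adjusted over all genes tested in a fit; scripts were tested on simulated data. Alternatives were DESeq2 1.42.0, RLE size factors, no count filter, Leiden resolution 0.5, 10% mitochondrial UMIs, doublets kept and leaving out each library. In each class the text names the 3 members with the largest positive and the 2 with the largest negative called difference, a set of always described members, and for genotype the 3 smallest p values (members outside this rule, such as Hspb11 in oligodendrocytes and Dnajb11 in microglia, were chosen after their values were seen). Gene lengths and overlaps came from GENCODE M21.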

Additional observations from a re-analysis of the deposited data

How the results depend on the processing

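Among the alternatives for counts of members and summed shares, 278 values stayed near the reported one and 7 moved; among those for single genes, 698 kept their direction and side of the threshold, 7 fell below it, 1 passed it and 4 changed sign. Without a filter on low counts 1 member was called between genotypes in oligodendrocytes, Dnajc6 (edgeR log2 difference 1.60, adjusted p = 0.0314), in place of 0, and leaving out 1 library at a time gave 0 to 0. The share of all genes called in the unfiltered fit is not given here. With the filter the Dnajc6 difference was 1.56, and 0.55 without knockout replicate 1. Members lower in astrocytes numbered 11, 7 with RLE size factors and 5 to 10 with 1 library left out. Members higher in oligodendrocyte precursors numbered 1, 3 with RLE size factors, 3 at Leiden resolution 0.5 and 0 to 1 with 1 library left out. Members higher in neurons than in glia numbered 23 and 14 to 23 with 1 library left out, 14 being without knockout replicate 1. The genotype difference of Dnajc6 in inhibitory neurons ran from -0.0742 (without knockout replicate 1) to 2.25, that of Dnajc10 in astrocytes from -0.12 to 0.45 and that of Dnajc3 in microglia from -0.73 to 0.14; for these and the counts above the cause was not tested. No paired analysis was possible because replicate numbers follow accession order and the labels pair no mice. Depth limits the smaller classes most, since microglia held 102639 to 483387 UMIs per library.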
